A study of Mus musculus with 102 samples.

Results

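The CpGs described here are those where methylation was lower in mouse embryonic stem cells without TET proteins than in the line they came from. They were chosen by the measured levels themselves: a CpG had to be covered by at least 100 reads in wild type (WT) and in the TET-deficient line (TTKO) at day 0, and its level in TTKO had to be at least 15 percentage points below that in WT. The rule found 3296 CpGs, which is 0.167% of the 1979101 CpGs with enough coverage in both columns and came from a table of 2177608 CpGs. At the same threshold 620339 CpGs, or 31.3%, were higher in TTKO.

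Both lines were mouse embryonic stem cells in which both alleles of Dnmt3a and of Dnmt3b carry loxP sites. WT was the parental floxed line with its TET genes intact, and for SureSelect it was grown without transduction and measured at day 0. TTKO was derived from it by CRISPR/Cas9 frameshifts in the catalytic exons of Tet1, Tet2 and Tet3, and is a single clone, so that what differs between clones and what differs with TET cannot be told apart. TTKO cells were measured non-transduced at day 0 and at days 4, 8, 10, 13, 17 and 29 after transduction with recombinant Cre protein, which deletes Dnmt3a and Dnmt3b. Levels were read by SureSelect capture and bisulfite sequencing as a share of methylated reads per CpG, with the 3 replicates of each time point joined in the deposited table. The levels therefore have no replicate spread, intervals cover counting error only, and a test on these columns compares pooled libraries. No mock-treated SureSelect column was used here. Amplicon bisulfite sequencing, with levels per replicate, was used for non-transduced cells of both lines at day 0 and mock-treated cells of both at day 29. Cre-treated TTKO cells at day 29 were also measured by amplicon. Mock-treated cells received the dialysis buffer of the Cre protein without Cre.

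DNMT3A and DNMT3B add methyl groups to unmethylated CpGs, DNMT1 copies methylation onto the new strand after replication, and the TET enzymes oxidise 5-methylcytosine, which opens a route to its removal. Bisulfite does not separate 5-methylcytosine from 5-hydroxymethylcytosine, so the level in WT holds both. At imprinted genes, a control region is methylated on the copy from a single parent, and DNMT1 together with protecting zinc-finger proteins carries that mark through the early embryo. In stem cells such regions read as intermediate levels.

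The sequences of the loci that hold the most of these CpGs are shown to place the lower CpGs in their context, with the C and G of each lower CpG in capitals and all other bases, other CpGs included, in lower case. All are on the forward strand of the NCBIM37 (mm9) assembly, in which each of the 2177608 table positions fell on a CpG. The stretch upstream of Zrsr1 in an intron of Commd1 is chr11:22871989-22872275, and each of its 19 CpGs was a lower CpG. The stretch at Plagl1, chr10:12810847-12811115, held 15 lower CpGs among 23. That in an intron of Trappc9, chr15:72640435-72640726, held 15 among 17. An intergenic stretch of chromosome X, chrX:123302799-123303085, held 5 of 6 in sequence with only 34.1% G and C. The Fmr1nb stretch, chrX:66015111-66015297, held 10 of 11, and the Gab1 intron stretch, chr8:83383381-83383655, held 17 of 17. The last shows a dense row of lower CpGs in a tract of alternating C and G, at chr12:73816848-73816883 near Ppm1a.
Commd1/Zrsr1: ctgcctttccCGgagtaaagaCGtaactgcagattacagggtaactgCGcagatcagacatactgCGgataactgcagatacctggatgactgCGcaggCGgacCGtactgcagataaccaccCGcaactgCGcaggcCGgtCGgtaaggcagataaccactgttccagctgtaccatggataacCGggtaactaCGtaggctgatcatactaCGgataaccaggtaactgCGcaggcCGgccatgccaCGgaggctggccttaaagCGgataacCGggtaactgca
Plagl1: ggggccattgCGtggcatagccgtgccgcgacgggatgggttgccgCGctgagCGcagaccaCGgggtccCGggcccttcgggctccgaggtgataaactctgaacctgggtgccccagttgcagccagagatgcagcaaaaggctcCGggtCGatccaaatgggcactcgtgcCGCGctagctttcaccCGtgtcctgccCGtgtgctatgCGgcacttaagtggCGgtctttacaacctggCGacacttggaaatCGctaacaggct
Trappc9: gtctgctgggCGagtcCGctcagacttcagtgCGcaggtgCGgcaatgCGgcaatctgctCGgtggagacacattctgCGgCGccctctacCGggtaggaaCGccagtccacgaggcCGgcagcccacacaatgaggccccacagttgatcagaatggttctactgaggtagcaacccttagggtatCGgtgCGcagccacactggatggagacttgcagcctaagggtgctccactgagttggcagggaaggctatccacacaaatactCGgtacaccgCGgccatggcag
4932411N23Rik: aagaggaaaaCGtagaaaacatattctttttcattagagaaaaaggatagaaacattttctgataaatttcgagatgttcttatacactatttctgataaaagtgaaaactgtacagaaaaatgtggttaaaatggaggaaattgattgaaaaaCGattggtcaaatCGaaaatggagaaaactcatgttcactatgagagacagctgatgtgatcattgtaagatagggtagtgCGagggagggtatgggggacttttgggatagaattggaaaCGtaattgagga
Fmr1nb: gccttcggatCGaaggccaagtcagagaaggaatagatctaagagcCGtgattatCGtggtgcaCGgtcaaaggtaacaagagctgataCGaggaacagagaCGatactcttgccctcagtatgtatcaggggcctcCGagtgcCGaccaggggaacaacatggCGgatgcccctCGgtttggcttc
Gab1: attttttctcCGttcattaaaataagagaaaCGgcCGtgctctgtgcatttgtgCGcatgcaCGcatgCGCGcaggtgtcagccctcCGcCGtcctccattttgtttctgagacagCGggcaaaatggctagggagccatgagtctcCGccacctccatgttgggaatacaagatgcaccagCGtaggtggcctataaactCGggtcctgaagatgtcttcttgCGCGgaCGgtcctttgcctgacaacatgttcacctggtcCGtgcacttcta
Ppm1a: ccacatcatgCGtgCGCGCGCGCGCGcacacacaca

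The lower CpGs were intermediately methylated in WT. Their WT level had a median of 42.1% and quartiles of 33.1% and 52.8%, whereas the median over all CpGs with enough coverage was 6.3%. In TTKO at day 0 the median was 22.1%, with quartiles of 13.1% and 32.1%. The difference had a median of -18.5 points, and 2096 of the CpGs lay less than 20 points below WT, 439 at least 25 points and 13 at least 40 points. Because the rule used these columns, the values describe the choice and are not tested. At the threshold, 74 CpGs had a difference of -15 points and fell on average from 40.5% to 25.5%, and the 71 CpGs just outside it, at -14.9 points, went from 39.2% to 24.3%.

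The lower CpGs were not shallowly covered as a whole. Their median coverage was 264 reads in WT and 264 in TTKO at day 0, against 267 and 268 for all eligible CpGs. Of the eligible CpGs whose WT level was from 30% to 45%, 0.906% were lower CpGs, the highest share of any band, and 77.1% were at least 15 points higher in TTKO. In the band from 75% to 100% the share was 0.0426%.

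The TTKO libraries at day 4 after Cre were not used by the rule. Their median over the lower CpGs was 22.1%, as at day 0. Single CpGs differed between the days: 52.8% were higher at day 4 than at day 0, against 38.2% of all eligible CpGs. At day 4, 3287 of 3296 were below their WT level, as were 22.3% of all eligible CpGs. At least 15 points below WT were 2417, or 73.3%, where 0.285% of all eligible CpGs were. These counts share the WT column with the rule and follow Cre treatment, so no test is attached to them. The comparison of day 4 with day 0 shares the TTKO day 0 column with the rule. A choice of low day 0 levels favours a higher level at day 4, so that comparison is not independent of the choice. The share that stayed 15 points below WT was 65.2% where the shallower of the columns had 100 to 149 reads and 77.3% where it had 500 or more.

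Most of the lower CpGs stood alone or in short groups. A run was counted where 2 or more followed each other among the eligible CpGs at gaps of at most 500 bp, and 418 runs held 1131 CpGs, or 34.3%. Of the runs, 308 were pairs, 76 held 3 or 4 CpGs and 34 held 5 or more, with a median span of 21 bp and at most 21 CpGs. When CpGs within 5 kb of each other were joined, 2137 clusters resulted, of which 1625 were a single CpG, 449 held 2 to 4 CpGs and 63, called loci here, held 5 or more. The 63 loci held 591 CpGs, or 17.9%, over spans of 10 to 14390 bp with a median of 789 bp.

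CpGs alone within 5 kb averaged 43.2% in WT and 24.6% in TTKO, and those in loci averaged 43.3% and 21.2%. At day 4, 70.0% of the lone CpGs, 79.1% of those in clusters of 2 to 4 and 71.9% of those in loci were still at least 15 points below WT.

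Neighbours of a lower CpG tended to be lower too, at short distances. Among eligible neighbours 2 to 10 bp away, 93.3% were below their WT level, 53.3% were themselves lower CpGs and the median difference was -15.6 points. At 11 to 25 bp the median was -9.8 points, at 26 to 50 bp it was -4.65 points, and at 51 to 100 bp it was 1.5 points. Over all neighbouring pairs at the same distances the median was 0.9, 3.0, 8.4 and 10.7 points, and 28.2%, 20.7%, 15.3% and 12.7% of neighbours were lower. Even at 51 to 100 bp, 45.2% of the neighbours of a lower CpG were lower. CpGs so close together share reads and are not independent measurements.

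**Figure D1:**
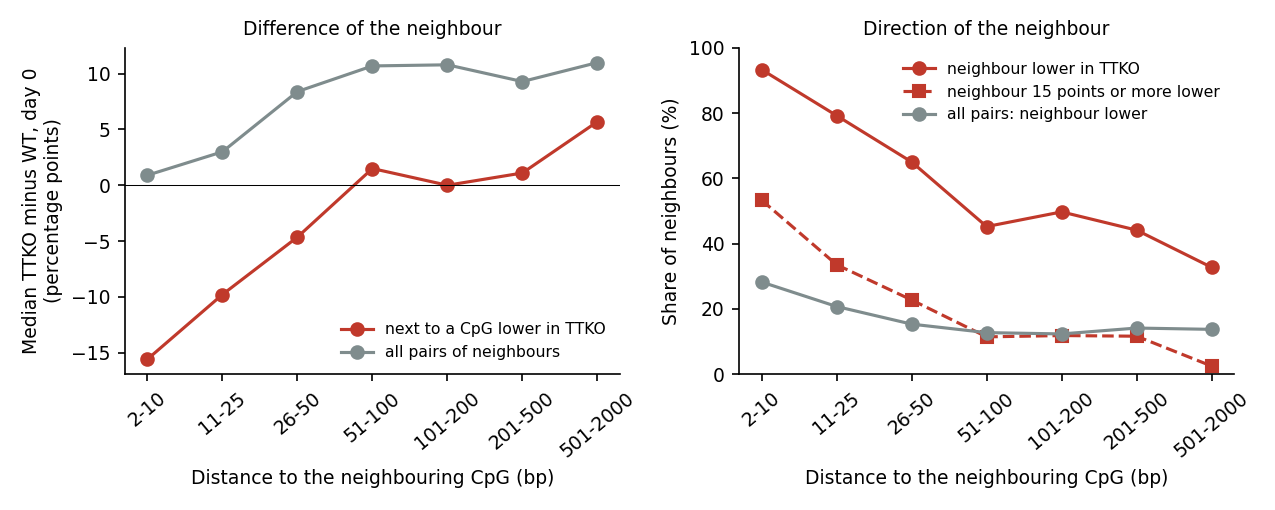
Left, median difference between TTKO and WT at day 0 (percentage points) of the CpG that neighbours a CpG at least 15 points lower in TTKO (red) and of all neighbouring CpGs (grey), by distance in bp. Right, the share of neighbours (%) that were lower, or at least 15 points lower; the red median crosses from -4.65 points at 26 to 50 bp to 1.5 points at 51 to 100 bp, while 45.2% of neighbours at that distance are still lower.

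Of the 2201 lower CpGs with an eligible neighbour within 500 bp on both sides, 1070, or 48.6%, had both neighbours lower in TTKO and 289, or 13.1%, had both higher. Over all eligible CpGs so flanked the shares were 8.21% and 63.0%. For 42 both neighbours were at least 15 points higher, so these were lower CpGs between neighbours that were higher in TTKO. Within the 63 loci, 954 eligible CpGs did not meet the rule, and 648 of them, or 67.9%, were lower as well, against 19.7% of all eligible CpGs. In 27 loci every eligible CpG was lower in TTKO. This count includes loci, such as those at Fmr1nb and Ppm1a, where each eligible CpG met the rule. For these it follows from the choice.

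The locus with the most lower CpGs was the imprinted Zrsr1 region. Its 58 CpGs at chr11:22871982-22873162 ended just upstream of Zrsr1, a paternally expressed retrogene that encodes a splicing factor and lies in an intron of Commd1, a regulator of copper transport. The mean over the 58 was 42.9% in WT and 25.2% in TTKO at day 0, then 27.6%, 26.8%, 26.1%, 24.5%, 21.5% and 18.4% at days 4, 8, 10, 13, 17 and 29. Single CpGs ranged from 35.8% to 52.7% in WT and from 19.6% to 28.3% in TTKO, values that the rule used. The 22 other eligible CpGs in the span were lower too, with a median difference of -13.25 points.

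Plagl1 and Trappc9 followed. Plagl1 encodes a zinc-finger transcription factor expressed from the paternal copy, and its 29 lower CpGs lay within 500 bp of an annotated start, at chr10:12810345-12811310. Their mean was 42.2% in WT and 25.4% in TTKO at day 0, but 34.1% at day 4 and 33.5% at day 8, before 30.7%, 30.9%, 26.7% and 24.4% at days 10 to 29. Thus at day 4 only 2 of the 29 were 15 points or more below WT, against 33 of 58 at Zrsr1. Trappc9 encodes a subunit of a vesicle-tethering complex, and the intron concerned carries the imprinted transcript Peg13, which is not in the annotation used. Its 26 lower CpGs at chr15:72640103-72640891 averaged 61.1% in WT, 43.4% at day 0 and 42.5% at day 4 in TTKO, and then 43.8%, 39.97%, 42.4%, 40.5% and 41.9% at the later days.

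**Figure D2:**
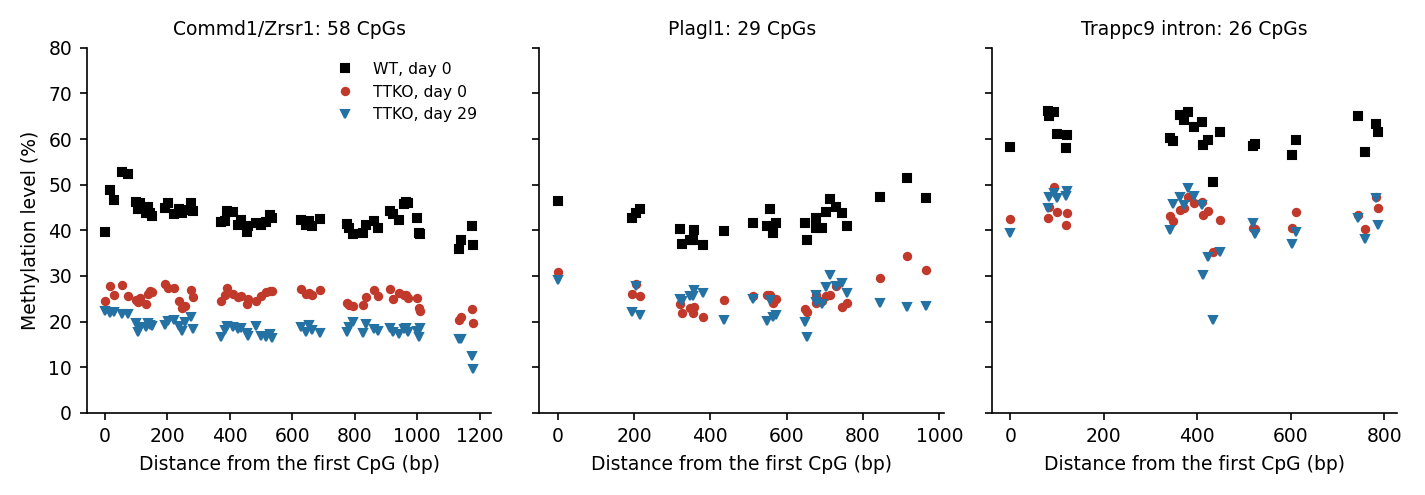
Methylation level (%) of each lower CpG in the 3 loci that held the most, against its distance in bp from the first, in WT at day 0 (black), TTKO at day 0 (red) and TTKO at day 29 after Cre (blue). WT lies above TTKO at day 0 at each CpG because the rule chose them so. In the Trappc9 intron the TTKO mean was 43.4% at day 0 and 41.9% at day 29, and at Commd1/Zrsr1 it fell from 25.2% to 18.4%.

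To view other imprinted regions in the same way, stretches were collected across the table in which at least 15 eligible CpGs had 10 or more CpGs within 100 bp (their own included) and a WT level from 25% to 75%, chained at gaps of at most 1 kb. This view was chosen after the values above were seen. Of 440 such stretches, 9 had a lower mean in TTKO, and only those at Commd1/Zrsr1, Plagl1 and Trappc9 were at least 10 points lower, at -16.5, -13.9 and -13.2 points. The median over all stretches was 27.7 points higher in TTKO. Of the 13 stretches at genes of a list of 47 imprinted genes, the other 10 held no lower CpG: Gnas had -4.48 and 1.83 points in its pair of stretches, with 28 of 32 CpGs lower in the first, Impact -0.872 with 15 of 25 lower, Airn/Igf2r 0.347, Peg10/Sgce 0.789, Kcnq1 0.874, Mest 1.52, Blcap/Nnat 3.97 and Peg3 6.58 points. The last of the 13, a second stretch in Trappc9, was 31.95 points higher in TTKO.

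**Figure D3:**
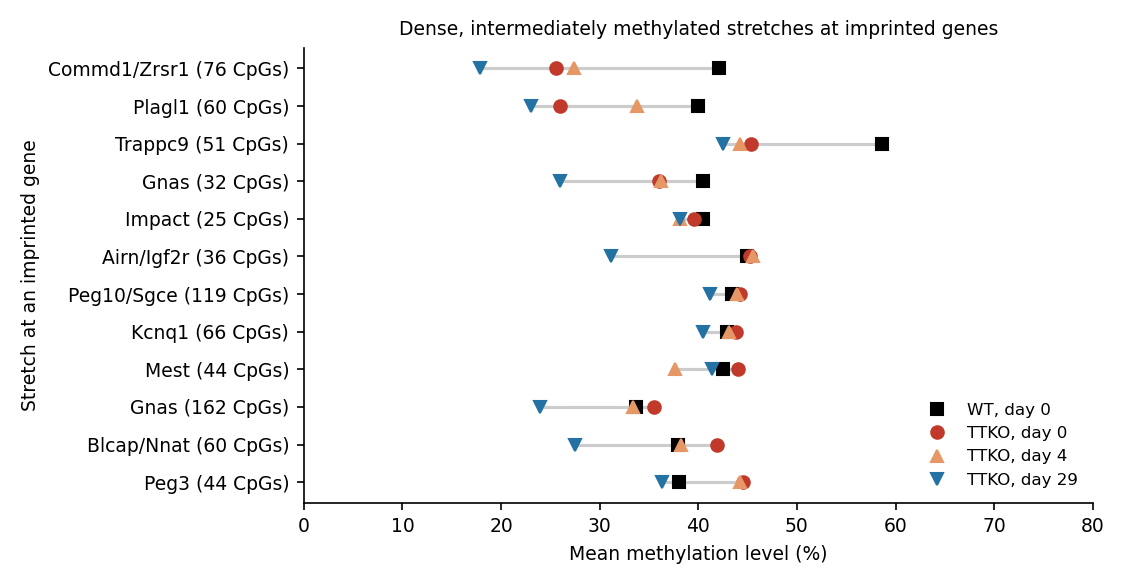
Mean methylation level (%) of dense, intermediately methylated stretches at imprinted genes, ordered by the difference between TTKO and WT at day 0, in WT at day 0 (squares), TTKO at day 0 (circles) and TTKO at days 4 and 29 after Cre (triangles). Stretches at Commd1/Zrsr1, Plagl1 and Trappc9 lie 13.2 to 16.5 points below WT at day 0, and the 9 others drawn lie within 7 points of it; the Trappc9 stretch 31.95 points above WT is not drawn.

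The list of 47 imprinted genes, read as gene bodies with 5 kb on each side, had 139 lower CpGs among 6579 eligible ones, or 2.11%, in 9 genes, where 0.167% of all eligible CpGs were lower. Its median difference over all eligible CpGs was nevertheless 4.7 points higher in TTKO. Commd1 and Zrsr1, whose windows overlap, held 58, Plagl1 29, Trappc9 26 and Gab1, a docking protein of receptor tyrosine kinases that is imprinted in placenta, 20. H13 and Sfmbt2 held 2 each, and Meg3 and Mkrn3 had 1 each.

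The Gab1 CpGs lay in an intron 20734 bp or more from a start, at chr8:83382786-83383645. Their mean was 31.96% in WT and 9.80% in TTKO at day 0, rose to 17.6% at day 4 and then was 12.5%, 9.69%, 9.87%, 8.82% and 6.89% at days 8 to 29. WT levels ran from 23.3% to 38.3% and TTKO day 0 levels from 5.5% to 13.6%. At day 4, 9 of the 20 were still at least 15 points below WT.

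Chromosome X had the highest share of lower CpGs. Of its 24197 eligible CpGs 120 were lower, or 0.496% (95% Wilson interval 0.415% to 0.593%), while the autosomes ran from 0.121% (0.106% to 0.138%) on chromosome 11 to 0.220% (0.196% to 0.246%) on chromosome 4. Chromosomes 5, 13 and 10 had 0.216%, 0.213% and 0.210%, and their intervals overlapped that of chromosome 4. With each cluster counted once, X had 0.219 clusters per 100 eligible CpGs against 0.108 over all chromosomes, so the excess was smaller. X also had the smallest share of CpGs at least 15 points higher in TTKO, 20.9%. Where the 51 bp around the CpG occurred only once in the genome, 89 of 23362 eligible CpGs on X, or 0.381%, were lower, against 0.161% of all. The intervals count CpGs as independent, which neighbours are not.

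**Figure D4:**
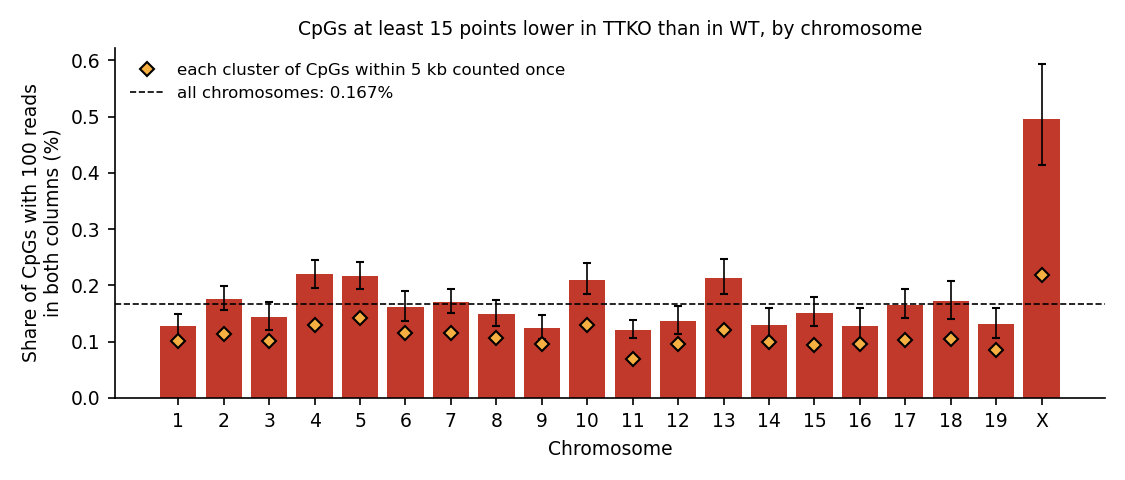
Share of eligible CpGs (%) that were at least 15 points lower in TTKO than in WT, per chromosome (bars, with 95% Wilson intervals that cover counting error only), and the same with each cluster of CpGs within 5 kb counted once (diamonds). Chromosome X stands at 0.496% above the 0.167% of all chromosomes (dashed), and at 0.219 clusters per 100 eligible CpGs.

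On X, 3 loci held 22, 21 and 12 of the 120. The largest, at chrX:123298061-123312450, held 22 CpGs in A- and T-rich sequence 34544 bp from 4932411N23Rik, its nearest protein-coding gene, with a mean of 42.1% in WT, 17.4% in TTKO at day 0, 22.4% at day 4 and 5.94% at day 29. The 51 bp around 13 of these 22 occur elsewhere in the genome too, and the part of such copies in the result was not tested. At Fmr1nb, the neighbour of the fragile X gene, all 21 eligible CpGs of chrX:66014814-66015287 were lower and lay within 500 bp of the start. They fell from 25.4% to 50.3% in WT to 4.9% to 12.9% in TTKO at day 0, the columns of the rule, and their mean was 32.6%, 8.97%, 14.2% and 2.92% in WT and in TTKO at days 0, 4 and 29. Mid1, a ubiquitin ligase gene at the boundary of the pseudoautosomal region, held 12 CpGs with a mean of 27.7% in WT, 8.82% at day 0, 14.5% at day 4 and 4.12% at day 29. An exact copy of the surrounding 51 bp exists for 11 of these 12.

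Some stretches of chromosomes held many separate clusters. Windows of 1 Mb were ranked by the number of clusters: of 2574 windows with an eligible CpG, 1095 held a lower CpG and 63 held 5 or more clusters. The window from 62 Mb on chromosome 13, which holds Zfp808 and Zfp935, had 52 lower CpGs among 940 eligible ones, or 5.53%, in 12 clusters. The windows from 145 Mb and from 146 Mb on chromosome 4, the latter with Zfp600, had 40 of 1038 and 34 of 1020, or 3.85% and 3.33%, in 10 and 9 clusters. The window from 31 Mb on chromosome 7 also had 10 clusters, with 21 lower CpGs or 0.576%, and that from 129 Mb on chromosome 5 had 9, with 14 or 1.02%. In all, 10 of the 63 loci were on chromosome 4 and 5 on chromosome 13.

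In these windows of chromosome 4, Gm13225 held 14 lower CpGs that averaged 40.9% in WT, 19.5% in TTKO at day 0 and 7.91% at day 4, and 7 of these have a copy. Gm13051 held 10 CpGs at chr4:146064636-146065711, with 39.1%, 14.5% and 9.68%, and the sequence around 8 of them is repeated, up to 582 times. Gm13242 held 8 CpGs at chr4:145230188-145231524 with 40.5% in WT and 13.7% at day 0. On chromosome 13, 12 CpGs at chr13:62356691-62357306 averaged 29.2% in WT and 7.10% at day 0, and 10 at chr13:62364765-62365394 averaged 23.4% and 2.13%, all in intergenic sequence whose nearest protein-coding gene is Gm17352. The 11 CpGs at chr13:61813759-61814511, whose nearest gene, at 142333 bp, is the cathepsin gene Cts3, averaged 30.1% in WT and 8.96% at day 0. The sequence around 3 of the 12, 1 of these 11 and 2 of the 8 in Gm13242 also has a copy, and that of the 10 has none. Each of these loci was below its WT mean at day 4, as all 63 loci were. These means are over the lower CpGs only and share the WT column with the rule.

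The clustered protocadherin genes, cell-surface adhesion proteins of neurons, held the most separate clusters of any 1 Mb window, 19, with 36 lower CpGs among 4455 eligible ones, or 0.808%, from 37 Mb on chromosome 18. The largest locus there, 9 CpGs at Pcdha11, averaged 58.6% in WT, 36.6% in TTKO at day 0 and 25.3% at day 29, and 3 of the 9 have a copy. By the gene list, 33 of 4222 eligible CpGs, or 0.782%, were lower, against 0.167% of all, in 10 of 24 annotated genes with eligible CpGs. In Pcdha11 there were 19, in Pcdhgc5 7, and in Pcdhb4 and Pcdhb6 2 each. The annotation used gives these names very unequal extents: Pcdha11 and Pcdhgc5 had 1430 and 1675 eligible CpGs, Pcdhb4 and Pcdhb6 97 and 59. The number of genes is therefore not a measure of spread over the cluster. The median over the list was 4.1 points higher in TTKO.

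Among germline genes, whose promoters are silenced by methylation in somatic cells, 3 of 21 held 12 lower CpGs of 1050 eligible ones, or 1.14%, against 0.167% of all eligible CpGs. The median over the eligible CpGs of this list was nevertheless 10.2 points higher in TTKO. The synaptonemal complex gene Sycp3 held 7, with a mean of 44.0% in WT, 20.0% at day 0 and 4.94% at day 29, the testis bromodomain gene Brdt 3 and the PIWI gene Piwil1 2. Olfactory receptor genes, of which 207 had eligible CpGs, held 5 lower CpGs of 1419, or 0.352%. The lists of Tet and Dnmt genes, pluripotency genes, Hox genes and the X-inactivation centre held 0 of 1280, 3762, 5895 and 206 eligible CpGs, which allows shares of up to 0.234%, 0.0797%, 0.0509% and 1.46%. These limits treat neighbouring CpGs as independent. They also count any CpGs under 15% in WT, which the rule could not choose, so they are not read as a depletion.

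Several other loci held no CpG with a copied sequence. Dut, which encodes dUTPase, held 17 CpGs at chr2:125074313-125078062 with 49.1% in WT, 22.2% at day 0 and 22.0% at day 4. Sestd1, a spectrin-domain protein gene 22456 bp away, had 13 CpGs at chr2:77151619-77152156 with 56.5% in WT, 29.0% at day 0 and 15.9% at day 4. Near Pdpn, the podoplanin gene, 9 CpGs averaged 39.8% in WT, 14.1% at day 0 and 8.19% at day 4. Levels at day 4 thus stood above day 0 at some loci and below it at others: 18 of 63 loci were more than 5 points higher and 8 more than 5 points lower. The day 0 column was part of the rule, which favours the first direction.

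The tract near Ppm1a printed above held 7 lower CpGs in 16 bp, with a mean of 47.8% in WT, 15.6% at day 0, 14.7% at day 4 and 4.03% at day 29. In all, 47 lower CpGs, or 1.43%, lay in tracts of 4 or more such CpGs in 13 clusters, against 0.282% of eligible CpGs and 0.172% of those with a WT level of 15% or more. Eligible CpGs in such tracts had a median difference of 0.4 points, and how reads were placed in these tracts was not tested.

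Outside the 20 loci with the most lower CpGs, the runs with the most CpGs were at Ppm1a and Zbtb7c with 7 each, then in Grin2b, near Rbm19, Sulf2, Gm10152 and 2310046K01Rik, and in 1700030G06Rik with 6 each, and in Tmem63c and near Ffar2 with 5 each. Grin2b encodes a subunit of the NMDA receptor, and its run averaged 58.9% in WT, 30.8% at day 0 and 7.13% at day 29. The run near Rbm19 averaged 42.4%, 14.9% and 1.63%. The 6 CpGs near 2310046K01Rik averaged 42.9% in WT and 22.1% at day 0, stood at 32.8% at day 4 and ended at 2.60%.

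Of the 10 lone CpGs with the largest differences, from -41.1 to -33.7 points, Npr3 led. This CpG, within 500 bp of the start of a natriuretic peptide receptor gene, was 54.9% in WT (46.4% to 63.1%, 133 reads) and 13.8% in TTKO at day 0 (8.99% to 20.5%, 138 reads), then 8.8% at day 4 and 1.7% at day 29. A deeply covered one, 16708 bp from Lmtk2, was 69.2% in WT (66.7% to 71.6%, 1352 reads) and 35.4% at day 0 (33.0% to 37.9%, 1483 reads), then 24.3% at day 4 and 2.3% at day 29. In introns of Eya2 and Dennd1a the levels were 63.0% and 57.5% in WT and 27.5% and 23.8% at day 0. The others were nearest to Dpy30, Ran, Cdk1, Zc3h12a, Radil and Tcp11l2 and lay in intergenic sequence.

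By place, 47.8% of the lower CpGs were intergenic, 33.2% in introns of protein-coding genes and 10.4% within 500 bp of a protein-coding start. Among eligible CpGs with a WT level of 15% or more, from which all lower CpGs came, the shares were 37.7%, 41.7% and 6.55%. The sequence around them was poorer in G and C: within 100 bp the median was 45.5%, against 49.5% in CpGs of that WT level and 52.0% in those at least 15 points higher in TTKO. The median number of CpGs in that window was 4 in the lower CpGs and 4 in those of that WT level. The share of lower CpGs among the latter was 0.305% where the window held 6 to 10 CpGs, 0.524% with 1 or 2 CpGs and 0.558% with 11 to 20.

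The hexamer TGCCGC, the methylated core of the site of the imprint-protecting protein ZFP57, was searched on both strands within 100 bp. It occurred around 101 lower CpGs, or 3.06%, against 9.35% of eligible CpGs and 4.54% of those with a WT level of 15% or more. In loci the share was 9.64%, of which Plagl1 gave 20 of 29 CpGs and the Trappc9 intron 18 of 26, while none of the 58 at Commd1/Zrsr1 had it. The palindrome CACGTG, the E-box of MYC-type factors, occurred around 3.43% of the lower CpGs and 4.80% of CpGs of that WT level. Matches of the 2 motifs can overlap in sequence. An exact copy of the surrounding 51 bp elsewhere in the genome was found for 158 lower CpGs, or 4.79%, against 1.56% of eligible CpGs, and 48 of the 63 loci held no such CpG.

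After Cre the lower CpGs lost methylation. Over all 3296 the mean was 23.6% at day 0 and 24.2% at day 4, then 17.9%, 15.3%, 13.3%, 9.80% and 5.99% at days 8, 10, 13, 17 and 29. The median fell from 22.1% at day 4 to 3.4% at day 29. Fisher's exact test per CpG on the pooled reads, two-sided and with Benjamini-Hochberg adjustment over the whole table, called 3024 of the 3296, or 91.7%, lower at day 29 than at day 4 at an adjusted p under 0.05, where 57.1% of all CpGs of the table were called. The table holds many more CpGs that were already under 10% at day 4, so CpGs of like level at day 4 are compared further on. None was called higher, and the 272 not called had a median of 6.05% at day 4 but included all 26 of the Trappc9 intron. The test compares the pooled libraries of these days and has no mock column beside it.

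**Figure D5:**
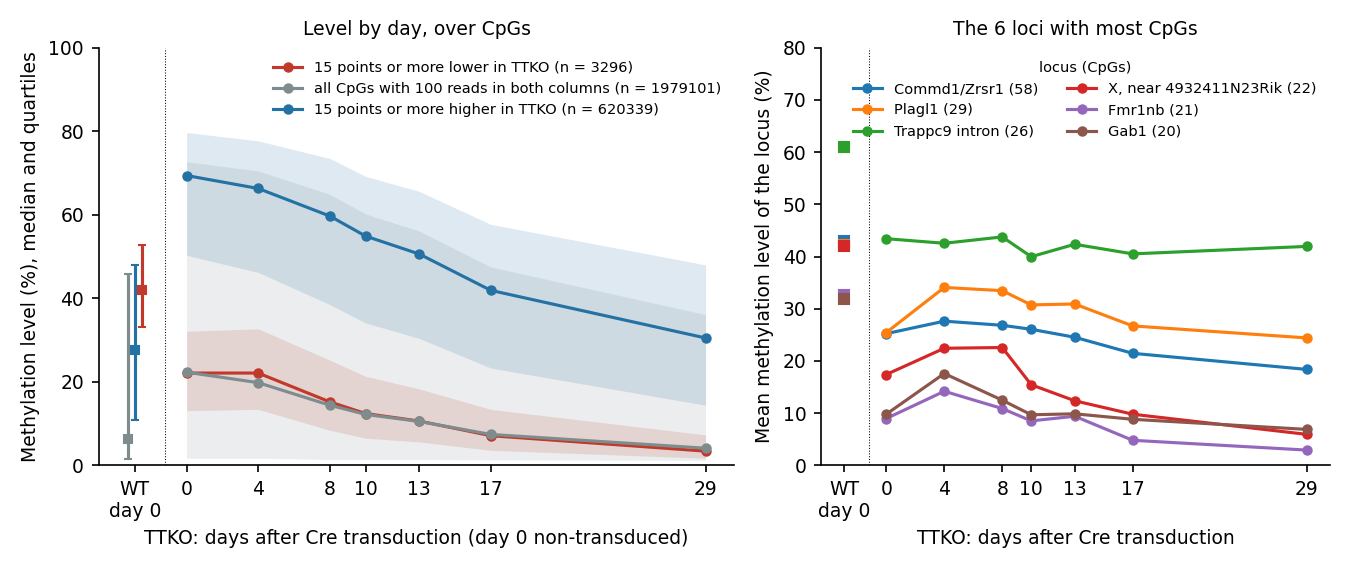
Left, median methylation level (%) with quartiles in WT (squares with bars) and in TTKO by day after Cre (points with bands) for CpGs at least 15 points lower in TTKO, for those at least 15 points higher, and for all eligible CpGs. Right, mean level (%) of the 6 loci that held the most lower CpGs; the lower CpGs go from a median of 22.1% at day 4 to 3.4% at day 29, while the Trappc9 intron stays near 42%.

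Within bands of the day 4 level from 10% to 60%, the lower CpGs kept a smaller share at day 29 than all eligible CpGs. Those between 20% and 30% at day 4, of which there were 837, averaged 24.7% then and 5.31% at day 29, keeping 21.5%, while all eligible CpGs in that band kept 24.6% and CpGs at least 15 points higher in TTKO kept 28.0%. Between 40% and 50% the lower CpGs kept 28.3%, all eligible CpGs 31.8% and the higher ones 33.3%. Between 50% and 60% the shares were 32.2%, 37.2% and 38.2%. Below 10% and above 60% the sets were not at a like level at day 4, with means of 6.28% and 66.1% for the lower CpGs and 2.16% and 76.8% for all eligible CpGs, and at day 29 they stood at 1.54% and 28.5% against 1.29% and 49.1%. In the bands from 10% to 60%, between 94.6% and 98.0% of the lower CpGs were called lower at day 29, and between 92.0% and 98.9% of all eligible CpGs. These bands rest on the pooled means, and the differences between the sets were not tested.

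A small number of loci kept much of their level. Of the 1855 lower CpGs at 20% or more at day 4, 343 kept less than 10% of that level at day 29, whereas 56 kept 75% or more. Of these 56, the Trappc9 intron had 25, Plagl1 14, Commd1/Zrsr1 8 and Pcdha11 2, and the other 7 clusters had 1 each. At the Trappc9 intron none of 26 CpGs was called lower at day 29 and the mean kept was 98.6% of day 4. At Plagl1 13 of 29 were called and 71.6% was kept, and at Commd1/Zrsr1 52 of 58 and 66.5%. Outside the imprinted list, Cdyl2 kept 72.2% and the locus of 9 CpGs at Pcdha11 67.8% of day 4. Gab1, which is on the list, kept 39.1%. The Cdyl2 share depends on day 4 as its base, since the locus averaged 27.6% at day 0, 15.5% at day 4 and 11.2% at day 29. Imprinted stretches without lower CpGs varied too: from day 4 to day 29, Peg10/Sgce went from 43.9% to 41.1% and Impact from 38.1% to 38.1%, while Airn/Igf2r went from 45.6% to 31.1%, Blcap/Nnat from 38.2% to 27.5% and the Gnas stretches from 36.3% to 25.99% and from 33.4% to 23.9%. Of the 63 loci, 50 had means of 10% or less at day 29 and 4 had 20% or more, namely Plagl1, Trappc9, Pcdha11 and Gm600.

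Replicated values near this contrast came only from the amplicon tables, which give 405 CpGs in each replicate. Of these, 237 had 100 reads in both SureSelect columns, and 0 were lower CpGs, with a lowest difference of -5.9 points. This allows a share of up to 1.27% if the CpGs are taken as independent. In the amplicons themselves, a quasi-binomial model with 3 samples per line called 6 of 405 CpGs, or 1.48%, lower in TTKO than in WT at day 0 and 240 higher, at a Benjamini-Hochberg adjusted p under 0.05. At day 29 of mock treatment, 20 of 384, or 5.21%, were called lower and 162 higher. At day 0 no amplicon CpG was 15 points or more lower in TTKO.

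At day 0 the amplicon CpG with the largest difference below WT was at position 23146904 of chromosome 2, in an amplicon that the submitters class as Constitutive_LMR-REST, named after the repressor REST, and outside the SureSelect table. Its levels were 34.5%, 32.6% and 35.8% in WT and 21.6%, 21.5% and 20.2% in TTKO at day 0, so the lines did not overlap, and the difference of -13.2 points had an adjusted p of 4.43e-04 by the quasi-binomial model. At mock day 29 they were 31.7%, 31.1% and 30.9% in WT and 11.3%, 8.87% and 16.7% in TTKO, a difference of -18.9 points with an adjusted p of 4.99e-04 by the same model. The neighbouring CpG at 23146938 went from 77.2% ± 0.974 to 67.8% ± 2.58 (SD, n = 3 each) at day 0, with an adjusted p of 2.55e-03 by the quasi-binomial model, and from 80.6% ± 3.31 to 59.7% ± 8.26 at mock day 29, where its difference of -20.8 points was the larger of the pair. For the loss after Cre, amplicons have the mock beside it: 256 of 384 CpGs, or 66.7%, were lower in Cre-treated than in mock-treated TTKO cells at day 29, and 0 were higher.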

How the data were processed

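Reads of 24 SureSelect and 78 amplicon bisulfite samples had been aligned to mm9 with Rbowtie in QuasR. The authors deposited, per CpG, the count of reads (coverage), and the level as a percent for SureSelect, with the 3 replicates of each time point joined; the SureSelect columns rest on at least 50 reads. For the amplicons the authors deposited the coverage count and the level as a fraction in each replicate, from AmpliconBiSeq. No normalization was applied. The members, gene lists and tests were chosen with earlier results of these data known, and the views of dense stretches, copied sequence and C-G tracts were added after the data were seen.

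From these files the members, runs and loci were found in Python 3.11.15 (numpy 2.4.6, pandas 2.3.3), and methylated reads were taken as level times coverage, rounded to whole reads. Fisher's exact test (numba 0.67.0), two-sided, compared days 29 and 4 over the whole table. Amplicon CpGs were fitted by quasi-binomial regression, with dispersions moderated by squeezeVar of limma 3.58.1 under R 4.3.3, 0.5 added to each read count, at least 100 reads per sample and a dispersion of at least 1. Both were tested on simulated data. Positions were annotated with GENCODE M1 on NCBIM37; a locus is named by the smallest protein-coding gene it overlaps, or the nearest.

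Named items are the 20 loci with most members, the 10 longest runs outside them, the 10 lone members with the largest difference, and the 4 genes per list with most members; some of these loci are not reported here. The alternatives concerned coverage, thresholds, gaps, over-dispersion, averages, replicates left out and a replicate block. Same-numbered amplicon samples of the lines did not deviate together (correlations of -0.168, -0.147 and -0.321 at day 0). Reads are PCR products without molecular identifiers, so intervals cover counting error only. Where nothing ties replicates to separate cultures, p-values measure the spread between these samples.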

Additional observations from a re-analysis of the deposited data

How the results depend on the processing

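The number of lower CpGs depended on its thresholds: 3296 became 2038 and 1325 with at least 200 and 300 reads, 9054, 1200, 439 and 168 at 10, 20, 25 and 30 points, and 750 when the upper 95% limit of the difference (Newcombe interval) also had to be at or below -15 points. Runs, 418 as reported, became 275 at 200 reads, and loci stayed at 60 to 85 for gaps of 1 kb to 50 kb. The share in runs stayed at 33.0% to 34.3%. Chromosome X went from 0.496% to 0.219% with each cluster counted once. The mean at day 29, 5.99%, was 5.68% weighted by reads and 5.36% over clusters, and the median was 3.4%. Day 29 against day 4 called 2617 with an assumed over-dispersion between replicates of 0.0055, 2463 with 10 points added as a criterion and 2495 of 2662 with 100 reads in every column.

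With a replicate block, 4 amplicon CpGs rather than 6 were lower in TTKO at day 0, 14 rather than 20 at mock day 29, and 253 rather than 256 after Cre; the numbers only name samples, and this pairing changed no count by over 1.5 times. Leaving out each sample in turn gave 4 to 8, 10 to 14 and 219 to 261. At mock day 29 the count of 20 fell to 12, 10 and 11 without WT replicate 1, 2 or 3 and to 13 and 10 without TTKO replicate 1 or 3. The share of lower CpGs was 0.206% at 100 to 149 reads, 0.148% at 150 to 249, 0.147% at 250 to 499 and 0.207% at 500 reads or more.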
